A study of Macaca mulatta with 6 samples.

Results

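The genes described here are those of pigment cells and of the retinal pigment epithelium (RPE), the pigmented cell layer that lies behind the photoreceptors. TYR, TYRP1, DCT, PMEL, MLANA, SLC45A2, MITF, BEST1 and TTR were chosen by name, and every probe set that carries one of these symbols was taken. This gave 17 probe sets for 8 of the 9 genes, among 52024 probe sets in all, and no probe set carried the symbol TTR, which was not analysed here. The genes were read as a gauge of how much pigmented tissue came along when the retina was dissected.

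The data were 6 rhesus macaque arrays, 1 for each retina of 3 adult male monkeys. The 3 treated retinas were taken 24 h after the optic nerve of the same side had received 15 Gy within the orbit by gamma knife surgery, a focused radiation beam, and the 3 control retinas were those of the opposite, untreated side of the same monkeys. All 6 eyes shared the anesthesia and the stereotactic frame, and the eyes themselves also received a low stray dose, higher on the treated side. The retinas were freed of the RPE at dissection by the study's methods, and RNA came from the temporal part only, so the control is the other eye of the same animal and not an unexposed animal.

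Melanin is made in melanosomes, organelles of the neural crest-derived melanocytes of the choroid and of the neuroectodermal RPE. The enzymes of the tyrosinase family carry out the synthesis, PMEL builds the fibrils on which the pigment is laid down, and MITF switches on much of the set. The RPE recycles the visual pigment chromophore, carries ions and nutrients between choroid and photoreceptors, and adheres closely to the outer segments, so that pieces of it can stay on a detached retina. The neural retina itself makes no melanin, although some genes of the set are also transcribed in it.

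No probe set of a pigment gene passed the test for a difference between treated and control retinas. Of the 17 probe sets, 14 had a lower mean in treated retinas and 3 a higher mean. Of all 52024 probe sets, 28416 were lower and 23608 higher. No probe set of the 17 passed an adjusted p under 0.05 in the paired limma fit, in which 0.111% of all probe sets passed. None passed an unadjusted p under 0.05 either, where 3.77% of all probe sets were lower and 2.97% higher in treated retinas. The smallest unadjusted limma p among the 17 was 0.0528, and their adjusted limma p values ran between 0.744 and 0.997. With the brightest probe set standing for each gene, the median log2 difference of the 8 genes, treated minus control, was −0.32, beside 0.032 over all 14132 genes. The signs of the pair differences were not the same in all pairs for 7 of the 8 genes, with MLANA the exception. Of the 8 genes, 8 were lower in the treated retina of replicate 1, 2 in that of replicate 2 and 5 in that of replicate 3.

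Levels below are log2 signals of the deposited table, and the signal of 1 probe set is not set against that of another. A log2 signal under 5 is called dim. Of the 17 probe sets, 6 were at 5 or more on every array, and the other 11 were dim on at least 1 array.

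TYR encodes tyrosinase, the rate-limiting enzyme of melanin synthesis. Its brighter probe set read 3.49, 5.92 and 7.22 in treated retinas of replicates 1, 2 and 3, against 4.22, 3.97 and 6.59 in control retinas. Replicate 3 was the highest in either group, and the groups overlapped. The difference of 0.62 ± 0.67 (SE, n = 3 pairs) had a 95% interval of −0.95 to 2.18 and a limma adjusted p of 0.856, and TYR was the only gene of the 8 with a mean above 0. The other TYR probe set differed by −0.92 and was dim on all 6 arrays, so the pair of probe sets had opposite signs.

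TYRP1, the tyrosinase-related protein that acts later in the synthesis of brown-black eumelanin, was far steadier. Treated retinas read 9.79, 10.26 and 10.18, and control retinas read 10.43, 10.17 and 10.63. The level was lower in the treated retina of replicates 1 and 3 and nearly equal in replicate 2, and the ranges overlapped. The means were 10.08 ± 0.25 in treated and 10.41 ± 0.23 in control retinas (SD, n = 3 each), a difference of −0.33 ± 0.15 (SE) with an interval of −0.68 to 0.012 and a limma adjusted p of 0.748. On the linear scale the treated retina held 0.642, 1.06 and 0.731 times the signal of its control in replicates 1, 2 and 3.

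DCT encodes dopachrome tautomerase, the third member of the family. Its brightest probe set read 5.64, 4.997 and 4.90 in treated retinas, against 7.86, 4.97 and 3.14 in control retinas. The control retinas spanned the whole range, with replicate 1 highest and replicate 3 lowest of the 6 arrays. The mean difference of −0.15 ± 0.80 (SE) was therefore small beside the pair differences of −2.22, 0.027 and 1.76. The other DCT probe sets differed by −0.016 and −2.51. The value of −2.51 rested on replicate 1, in which the treated retina read 0.07 and the control retina 7.62.

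PMEL, the scaffold protein of the melanosome, read 7.10, 5.70 and 5.33 in treated retinas, against 7.84, 6.85 and 4.97 in control retinas. Here the order of the replicates was the same in each group, with replicate 1 highest and replicate 3 lowest. The difference was −0.51 ± 0.43 (SE), with an interval of −1.52 to 0.50 and a limma adjusted p of 0.818. It was −0.18 without replicate 2 and −0.94 without replicate 3.

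MLANA, a small membrane protein of early melanosomes, was the only gene of the 8 whose groups did not overlap. Its brightest probe set read 8.58, 8.85 and 8.74 in treated retinas, against 8.92, 9.06 and 9.13 in control retinas, and it was lower in the treated retina of all 3 pairs. Over all genes, 2.70% had every treated array below every control array and 4.30% had every treated array above. The means of 8.72 ± 0.13 in treated and 9.04 ± 0.11 in control retinas (SD, n = 3 each) gave a difference of −0.31 ± 0.14 (SE), with an interval of −0.63 to 0.0049 and a limma adjusted p of 0.744. The other 3 MLANA probe sets differed by 0.80, 0.59 and −1.08, each dim on at least 1 array, and each was lower in the treated retina of replicate 1 and higher in those of replicates 2 and 3. The probe sets of MLANA thus had no common sign.

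SLC45A2, a transporter of the melanosome membrane, read 9.24, 10.09 and 9.47 in treated retinas, against 10.65, 9.78 and 9.77 in control retinas. The highest array was the control of replicate 1 and the lowest the treated of replicate 1. The difference was −0.47 ± 0.28 (SE), with pair differences of −1.41, 0.31 and −0.30, an interval of −1.12 to 0.18 and a limma adjusted p of 0.754. The other 2 probe sets differed by −0.60 and −0.13 and had means under 5.

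MITF, the transcription factor of the melanocyte and RPE program, varied least. Its brighter probe set read 11.25, 11.54 and 11.43 in treated retinas, against 11.30, 11.42 and 11.54 in control retinas. The difference was −0.011 ± 0.094 (SE), with an interval of −0.23 to 0.21, and the ranges of the groups overlapped almost completely. MITF is also transcribed from other promoters in other cell types, and the symbol on the probe set does not say which transcript it reads. The second MITF probe set differed by −0.11.

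BEST1 encodes bestrophin, a calcium-activated chloride channel of the basolateral membrane of the RPE, and its treated retinas spread far more than its control retinas. Treated retinas read 7.23, 10.14 and 8.79, while control retinas read 9.18, 9.38 and 9.43. The treated retinas thus held both the highest and the lowest of the 6 arrays, and the control retinas lay close together. The means were 8.72 ± 1.46 in treated and 9.33 ± 0.14 in control retinas (SD, n = 3 each), a difference of −0.61 ± 0.42 (SE) with an interval of −1.59 to 0.37 and a limma adjusted p of 0.778. By pair, the treated retina held 0.259, 1.69 and 0.642 times the linear signal of its control in replicates 1, 2 and 3. Only 1 probe set reads BEST1, so this spread has no second probe set beside it.

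**Figure D1:**
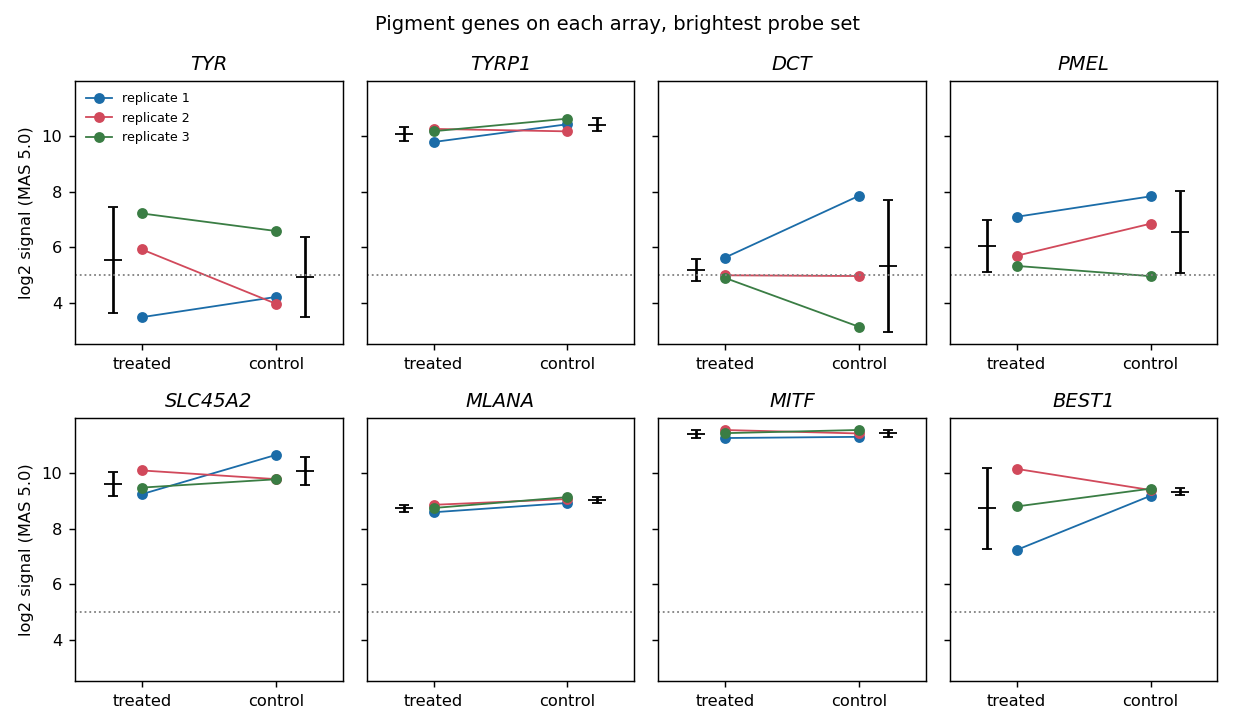
Log2 signal of the brightest probe set of each of the 8 pigment genes on each array, treated retinas left of control retinas, with 1 point per array, lines joining arrays of the same replicate number and bars at the group means. BEST1 spread between 7.23 and 10.14 in treated retinas against 9.18 to 9.43 in control retinas, and only MLANA had every treated retina below every control retina.

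The genes differed strongly in how far their signal moved over the 6 arrays. DCT spanned 4.71 log2 units, TYR 3.73, BEST1 2.92 and PMEL 2.87, while SLC45A2 spanned 1.41, TYRP1 0.84, MLANA 0.54 and MITF 0.29. Among the 37426 probe sets with a mean of 5 or more, the median range was 1.05, and 99.4% of them had a smaller range than DCT, 97.5% than TYR, 93.2% than BEST1 and 92.8% than PMEL. The corresponding share was 66.2% for SLC45A2, 37.2% for TYRP1, 16.8% for MLANA and 2.76% for MITF. The levels of DCT and TYR reached into the dim range, and the 5 probe sets with means under 5 had standard errors of 0.735 to 1.51, whereas BEST1 stayed above 7 on every array.

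**Figure D2:**
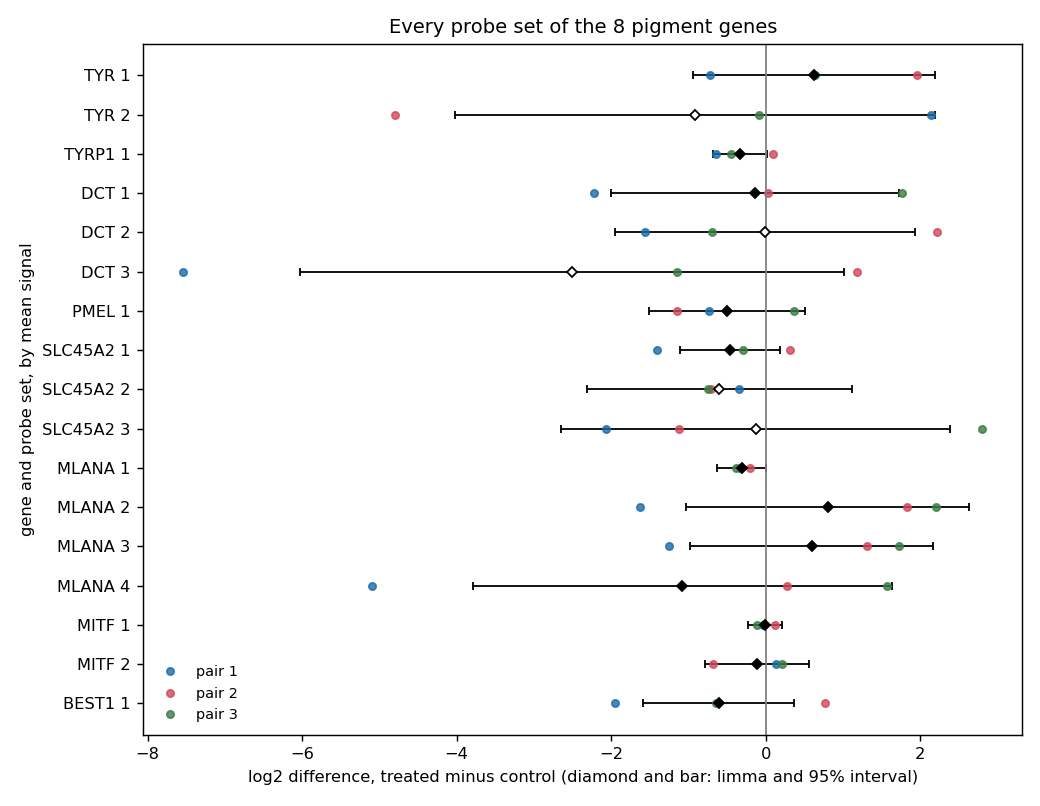
Log2 difference, treated minus control, for each of the 17 probe sets, with the limma estimate and its 95% interval and a point for each of the 3 pairs. Every interval includes 0, and the widest belong to dim probe sets such as the DCT probe set at −2.51.

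The array of the treated retina of replicate 1 carried the lowest signal for 6 of the 8 genes, against 17.4% of all genes and 18.4% of the genes with a mean of 5 or more. The median difference of the 8 genes was −0.73 in pair 1, 0.11 in pair 2 and −0.21 in pair 3. Over all genes, 44.8%, 44.1% and 50.5% were lower in the treated retina of pairs 1, 2 and 3. Summed on the linear scale, the signal of the 8 genes ran between 4665 and 7039 in treated retinas and between 6135 and 7041 in control retinas. The lowest sum was that of the treated retina of replicate 1. Such a sum is weighted to the brightest probe set, that of MITF at a mean log2 signal of 11.41, a gene transcribed in other cell types too. Dim genes such as TYR and DCT add little to it. In bulk tissue, fewer cells of a type and less RNA per cell cannot be told apart. Without replicate 1 the median of the 8 genes was 0.0058.

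Most other RPE genes were, like BEST1, lowest in the treated retina of replicate 1. Of 20 RPE genes listed, 16 had a probe set, and RPE65, LRAT, OTX2 and LHX2 were not analysed here. In treated retinas 14 of the 16 had a lower mean, beside 6294 of all 14132 genes. Their median difference was −0.35, but none of the 16 passed an adjusted p under 0.05 in the limma fit. RLBP1, KCNJ13, SLC16A8, STRA6 and ENPP2 were lower at an unadjusted limma p under 0.05, that is 5 of 16 genes where 3.01% of all genes were lower and 5.02% higher. All 16 genes were lower in the treated retina of pair 1, against 6 of 16 in pair 2 and 9 of 16 in pair 3, with pair medians of −0.96, 0.21 and −0.063. The treated retina of replicate 1 was the lowest array for 12 of the 16, and the SD was larger in treated than in control retinas for 14 of 16, against 5 of the 8 pigment genes and 56.5% of all genes. Their summed linear signal ran between 20003 and 36249 in treated retinas and between 32854 and 44471 in control retinas, and none of the 16 was at 0 on any array. This sum is weighted to DAPL1 and RLBP1, the brightest, at mean log2 signals of 13.28 and 13.02.

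The 3 brightest RPE genes were DAPL1, RLBP1 and SERPINF1. RLBP1, the retinaldehyde-binding protein that serves the visual cycle in RPE and is made in Müller glia too, had the lowest adjusted p of the list. It read 12.46, 12.97 and 12.96 in treated retinas, against 12.91, 13.37 and 13.45 in control retinas, and was lower in the treated retina of each pair. The difference of −0.45 ± 0.086 (SE) had an interval of −0.65 to −0.25 and a limma adjusted p of 0.270. DAPL1, a death-associated protein-like gene strongly transcribed in the RPE, read 12.63, 13.48 and 13.67 in treated retinas, against 12.99, 13.19 and 13.75 in control retinas. SERPINF1, the pigment epithelium-derived factor, read 11.48, 11.20 and 12.09 in treated retinas, against 11.72, 11.25 and 12.15 in control retinas. The mean differences of DAPL1 and SERPINF1 were −0.045 ± 0.13 and −0.11 ± 0.091 (SE), with limma adjusted p values of 0.954 and 0.804.

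Of the 16 RPE genes, 6 were lower in the treated retina in pairs 1 and 3 and higher in pair 2, against 11.6% of all genes. Another 4 were lower in pair 1 only, 3 were lower in pairs 1 and 2, and 3 were lower in every pair. Over all genes these shares were 9.19%, 10.4% and 13.6%. The 5 genes that follow were named after their values were seen and were chosen because they were higher in the treated retina in pair 2 only. ENPP2, the lysophospholipase D autotaxin, read 9.72, 11.53 and 11.01 in treated retinas, against 12.10, 11.23 and 12.18 in control retinas. Its pair differences were −2.38, 0.30 and −1.18, with a mean of −1.08 and a limma adjusted p of 0.730, and the other 2 ENPP2 probe sets differed by −1.25 and −1.11. STRA6, the cell-surface receptor for retinol-binding protein, gave pair differences of −2.02, 0.35 and −1.63. SLC16A8, a lactate transporter of the basolateral RPE membrane, gave −1.67, 0.21 and −0.85. RGR, an opsin of RPE and Müller glia, gave −1.87, 0.72 and −0.66, and RDH5, the 11-cis-retinol dehydrogenase of the visual cycle, gave −1.11, 0.41 and −0.61. The sixth was DAPL1, and of the 8 pigment genes BEST1, SLC45A2, TYRP1 and MITF had this order of signs.

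KCNJ13, an inwardly rectifying potassium channel of the apical RPE membrane, was lower in the treated retina of every pair, as were RLBP1 and SERPINF1. Its brightest probe set read 8.71, 9.69 and 9.75 in treated retinas, against 10.02, 10.09 and 10.19 in control retinas, without overlap. KCNJ13 was the 1 gene of the 16 with every treated array below every control array, against 2.70% of all genes. The difference was −0.72 ± 0.19 (SE), with a limma adjusted p of 0.544. The other 2 KCNJ13 probe sets differed by 0.22 and −0.74, so that the probe sets did not share a sign.

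**Figure D3:**
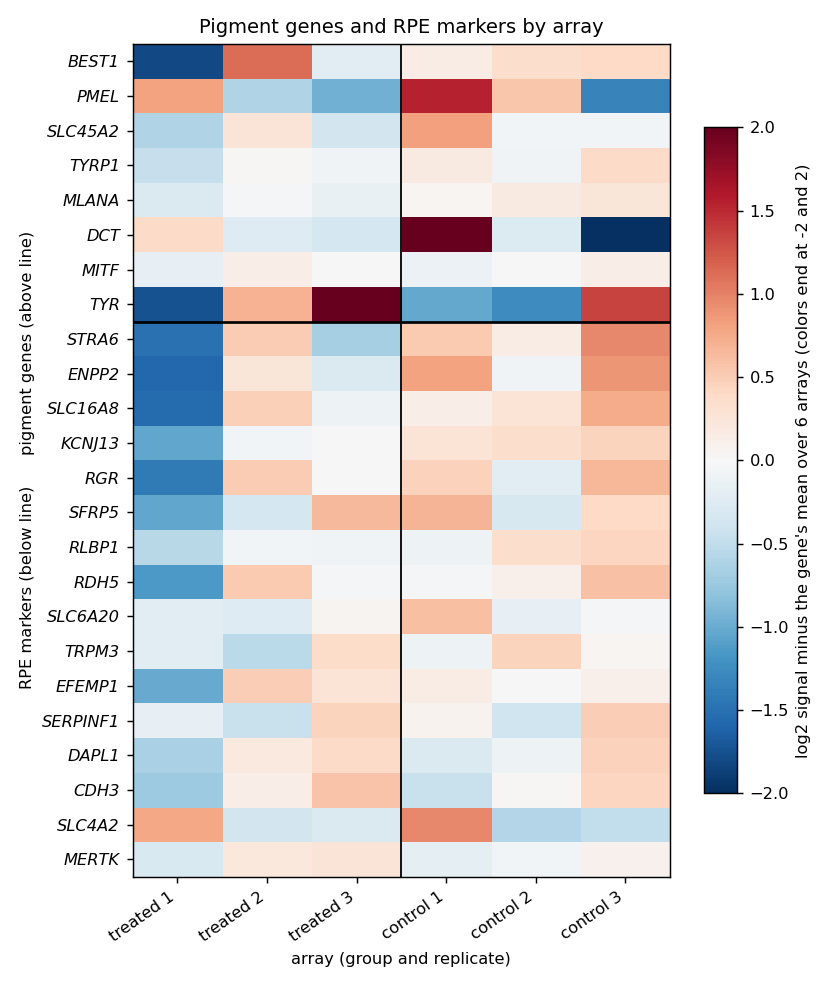
Log2 signal of each pigment gene and each RPE marker gene on each array after subtraction of the gene's own mean over the 6 arrays, treated arrays left of control arrays. The treated array of replicate 1 was the lowest for 6 of 8 pigment genes and 12 of 16 RPE markers.

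Which pairs entered the fit changed the calls. With replicate 2 left out, when 2 pairs remain and the limma prior sets most of the error, BEST1 differed by −1.29 (limma adjusted p = 0.0245) and TYRP1 by −0.55 (limma adjusted p = 0.0450), both lower in the treated retinas of replicates 1 and 3. On the same 4 arrays, 7 of the 16 RPE genes were lower at a limma adjusted p under 0.05, namely ENPP2, RGR, RDH5, SLC16A8, RLBP1, KCNJ13 and STRA6, where 0.234% of all genes were lower. Their differences ran between −0.48 for RLBP1 and −1.83 for STRA6. With replicate 1 left out, BEST1 differed by 0.061 and SLC45A2 by 0.0068, the median of the 16 RPE genes was −0.024, and no pigment or RPE gene passed an adjusted limma p under 0.05. The direction for BEST1 and SLC45A2 thus rested on the retinas of replicate 1.

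**Figure D4:**
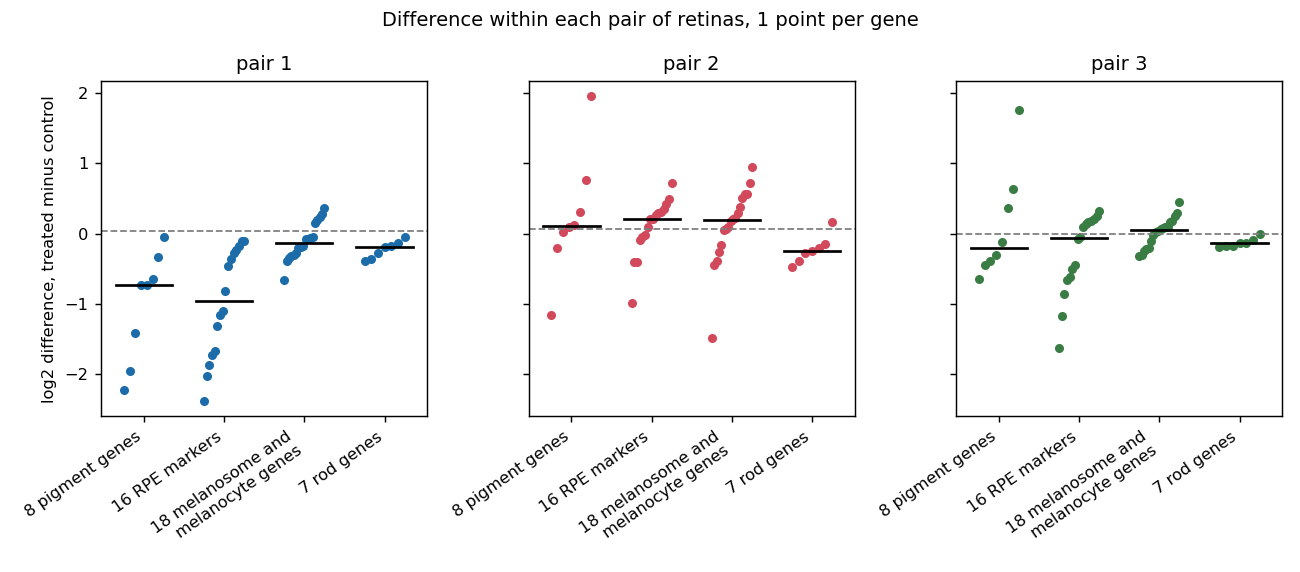
Log2 difference, treated minus control, in each of the 3 pairs, with 1 point per gene and a bar at each median. The lists are the pigment genes, the RPE markers, the melanosome and melanocyte genes and the rod genes. A dashed line marks the median over all genes. The median of the RPE markers was −0.96 in pair 1, 0.21 in pair 2 and −0.063 in pair 3. That of the melanosome and melanocyte genes stayed between −0.13 and 0.19, and that of the rod genes between −0.24 and −0.14.

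The wider melanosome and melanocyte list was evenly divided. Of 24 genes listed, 18 had a probe set, 9 with a lower and 9 with a higher mean in treated retinas, and the median difference was −0.0016. None passed an adjusted p under 0.05 in the limma fit, while 1 gene, HPS3, was higher and 2 genes, HPS4 and KIT, were lower at an unadjusted p under 0.05, against 5.02% and 3.01% of all genes. The treated retina of replicate 1 was the lowest array for 5 of the 18. The brightest member of the list was GPNMB, a melanosomal glycoprotein also made by phagocytes. It read 13.51, 13.44 and 13.26 in treated retinas, against 13.23, 13.15 and 13.46 in control retinas. A second GPNMB probe set read 7.74, 10.45 and 10.16 in treated retinas, against 9.78, 8.65 and 9.36 in control retinas. On that probe set the treated retina of replicate 1 was the lowest array. HPS4, a subunit of a complex that builds lysosome-related organelles, differed by −0.28, and TRPM1, a cation channel first found in melanocytes that also serves the ON bipolar cells of the retina, differed by −0.022. SOX10, the transcription factor of neural crest-derived pigment cells, had arrays between 5.16 and 5.90, close to the dim range in both groups. MREG, which acts in melanosome transport, varied more between replicates than between groups, with 11.32, 6.85 and 8.62 in treated retinas against 11.52, 8.33 and 8.65 in control retinas.

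Which genes tracked the pigment genes over the arrays was described with Pearson's r over the 6 arrays among 9675 genes, without a test, since the retinas of a monkey are not independent. The mean profile of TYR, TYRP1, DCT and PMEL was highest in the control retina of replicate 1. Its closest genes were TRAF7, LOC714946, SUN1, GFPT2 and PARM1, with r between 0.958 and 0.968. None of these is on the RPE or melanosome lists. The 4 genes entered this profile unscaled, so DCT and TYR, with ranges of 4.71 and 3.73, outweighed TYRP1 at 0.84. DCT was dim on 4 arrays and TYR on 3, so no reading of pigmented tissue is drawn from this profile. For BEST1, a profile added after its values were seen, the closest were ABCD4, TMEM39A, ST3GAL5, TSKU and PIERCE2, with r between 0.973 and 0.989. Of the 9675 genes, 47 had r over 0.9 with BEST1 and 16 with the mean profile. With 6 arrays and so many genes, high r values can arise by coincidence. Among the RPE markers RDH5 stood at rank 8 (r = 0.949), SLC16A8 at rank 11 (r = 0.941) and EFEMP1, an extracellular matrix protein, at rank 31 (r = 0.915). The others ranged widely, down to TRPM3 (r = −0.091), SERPINF1 (r = −0.11) and SLC4A2 (r = −0.60, rank 8604). No gene was among the closest 5 of both profiles.

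Genes listed for other tissues near the retina were read in the same fit, and no gene of any of these lists passed an adjusted limma p under 0.05. Whether these genes are also transcribed in the neural retina was not tested, so their medians do not gauge carryover alone. Among choroid and scleral stroma genes 3 of 6 measured were lower and 3 higher in treated retinas, with LUM, a proteoglycan of fibrous stroma, at −0.64 (limma adjusted p = 0.208, lower in 3 of 3 pairs), DCN at −0.089 and FMOD at 0.21. The median difference was 0.14 for 5 endothelial genes, among them VWF, TEK and PECAM1, −0.12 for 6 ciliary and iris genes, among them PAX6, AQP1 and CA4, and 0.075 for 5 lens genes, among them LIM2, BFSP1 and CRYBA1. It was 0.28 for 3 blood genes, HBB, ALAS2 and PTPRC, and 0.051 for the 2 oligodendrocyte genes OLIG2 and MBP. The summed linear signal of the stroma genes ran between 1633 and 1821 in treated retinas and between 1983 and 2128 in control retinas, which did not overlap. LUM carried this gap: without it the sums of the other 5 genes were 997 to 1226 in treated and 934 to 1151 in control retinas.

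Genes of the retina itself were read beside these, and no measured rod gene was dim on any array. All 7 measured rod genes, SAG, PDE6A and NRL among them, had a lower mean in treated retinas, with a median of −0.21. The smallest difference was that of NR2E3, at −0.00030, which is practically level. For 6 of the 7 the treated retina of replicate 1 was the lowest array, as for 12 of the 16 RPE genes. By pair the rod medians were −0.19, −0.24 and −0.14. In pair 2, 6 of the 7 rod genes were lower, where the RPE median was 0.21. Among the rod genes PDE6A, PDE6G and CNGA1 were lower at an unadjusted limma p under 0.05, that is 3 of 7. Over all genes 3.01% were lower. Among 5 Müller glia genes the median was −0.28, with GLUL at −0.28, VIM at 0.17 and SLC1A3 at 0.58, and among 3 retinal ganglion cell genes, THY1, POU4F2 and RBPMS, it was 0.36. At the same unadjusted threshold 3 of the 5 Müller glia genes, GLUL, KCNJ10 and RLBP1, were lower and 1, SLC1A3, was higher. RLBP1 is the same probe set that is counted on the RPE list. Among the 3 ganglion cell genes 2 were higher, POU4F2 and RBPMS. PTPRC was higher among 3 blood genes and LUM lower among 6 stroma genes. The shares over all genes were 3.01% lower and 5.02% higher. The array medians ran between 6.44 and 6.98 in treated and between 6.69 and 7.03 in control retinas, and 22.6% to 29.7% of probe sets were dim on treated and 22.6% to 25.9% on control arrays. The treated array of replicate 1 stood at 6.98 and 22.6%, values over all probe sets that do not describe the brighter genes alone. Of the genes with a mean of 5 or more, 18.4% were lowest on that array and 23.5% on the control array of replicate 1. The part of the amount of RPE left on each retina, or of any other property of that array, in the difference between pairs was not tested.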

How the data were processed

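Total RNA of 6 retinas was hybridized to Affymetrix Rhesus Macaque Genome arrays. The authors computed MAS 5.0 signals and deposited them as log2 values, 1 per probe set, each array scaled to a common trimmed mean (505.3 to 505.8 on the linear scale). Background, mismatch subtraction and scaling were thus done before deposit, and low signals scatter widely. The study's methods name GeneSpring software for this step, and no genome build was found in the labels or methods used. Probe sets were named from the platform annotation: 24956 carried 1 symbol, 361 several and 26707 none, and those with several were not used to name a gene. The pigment genes and all lists were chosen with earlier results of these data known.

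Treated and control were compared with limma 3.58.1 (R 4.3.3; lmFit and eBayes with a trend) blocked on the replicate number. Benjamini-Hochberg adjustment ran over 52024 probe sets. The study's methods paired both retinas of each monkey but do not tie the deposited replicate numbers to monkeys. Same-numbered arrays were taken as a pair because they deviated together, with correlations of 0.357, 0.137 and 0.161; the highest between unlike numbers was 0.104. The probe set with the highest mean stood for a gene. All pigment genes were named, and of each other list the 3 brightest. Genes named outside this rule were chosen after their values were seen. The script was tested on simulated data. The alternatives were no block, quantile normalization, median centring, an untrended prior, the methods' t-test, a floor or filter at log2 5, means over probe sets, and each replicate left out. Figures were drawn with matplotlib 3.10.9. The number of arrays limits the precision.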

Additional observations from a re-analysis of the deposited data

How the results depend on the processing

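Over all probe sets 58 passed an adjusted p under 0.05, and 0 did without the replicate block, with an untrended prior, with the methods' t-test or with signals under 5 set to 5; leaving out a replicate gave 17 to 222. At an unadjusted p under 0.05 the count was 3506, falling to 1275 without the replicate block, and 2210 to 4868 with a replicate left out. Of the pigment probe sets 0 passed the adjusted threshold, and 0 to 2 with a replicate left out (BEST1 and TYRP1 without replicate 2). At an unadjusted p, 0 became 1 with quantile normalization (TYRP1), 1 with an untrended prior (SLC45A2), 2 with the methods' t-test (MLANA and SLC45A2) and 1 to 5 with a replicate left out. The RPE markers had 0 adjusted calls, and 0 to 7 with a replicate left out. Their 5 unadjusted calls became 2 without the replicate block, 2 after centring, 1 with an untrended prior, 1 with the methods' t-test, 2 with signals set to 5, and 2 to 9 with a replicate left out. The 3 unadjusted calls of the melanosome list became 1 without the replicate block, 1 after centring, 0 with an untrended prior, 1 with the methods' t-test, and 1 to 3 with a replicate left out.

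Of 80 values of single pigment genes under these alternatives, 71 kept sign and side of the threshold, 7 changed sign and 2 passed the threshold. The difference itself is the same by construction without the block, with the untrended prior, with the methods' t-test and with the filter. No sign could change under those settings, so the share that kept sign overstates how stable the signs were. With a replicate left out, TYR ran between −0.048 and 1.29, DCT between −1.10 and 0.89, PMEL between −0.94 and −0.18, MITF between −0.078 and 0.041, BEST1 between −1.29 and 0.061, and SLC45A2 between −0.85 and 0.0068. The sign changes were TYR at −0.048 without replicate 2; DCT at 0.89, BEST1 at 0.061, SLC45A2 at 0.0068 and MITF at 0.0048 without replicate 1; and MITF at 0.041 without replicate 3 and 0.086 after centring. The median of the pigment genes stayed between −0.41 and 0.0058, beside −0.32 with all pairs; both ends are values with a replicate left out. The replicate block changed no adjusted call of the pigment genes, RPE markers or melanosome list, and the other lists were not rerun without it. The cause of these shifts was not tested. Probe sets with a mean under 5 had standard errors of 0.74 to 1.51, so differences well over 1 could be missed there. With a mean of 5 or more, standard errors ran between 0.094 for MITF and 1.16 for an MLANA probe set. The intervals of TYR, DCT, PMEL, BEST1 and SLC45A2 at their brightest probe sets also reached past a difference of 1, so such differences could be missed for them too.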
